A study of Mus musculus with 24 samples.

Results

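The nuclear genes of oxidative phosphorylation encode most subunits of the mitochondrial respiratory chain and the ATP synthase. Members were taken from the gene-level table by symbol: names that begin with Ndufa, Ndufb, Ndufc, Ndufs, Ndufv, Uqcr, Atp5, Cox4, Cox5, Cox6 or Cox7, together with Sdha, Sdhb, Sdhc, Sdhd, Cyc1, Cycs and Cox8a. Pseudogenes, the Ndufaf assembly factors and Cox7a1 were left out. This gave 88 of the 37991 genes in the table, of which 39 belong to complex I, 4 to complex II, 9 to complex III, 1 is cytochrome c, 18 belong to complex IV and 17 to complex V. The libraries are bulk poly(A) RNA-seq of subcutaneous inguinal fat pads from female mice killed at 26 weeks of age. The inbred strains were WSB/EiJ and CAST/EiJ, derived from wild mice, the obese NZO/HiLtJ, and C57BL/6J. From weaning, the mice ate either a standard diet with 17% of calories from fat or a diet rich in fat and sucrose, here called high-fat, with 45% of calories from fat, so that 4 strains and 2 diets form 8 groups of 3 mice each. No transgene, deletion or drug is named for any group, and the C57BL/6J standard-diet group is the reference for the strain comparisons.

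Complexes I and II pass electrons from NADH and succinate to ubiquinone, complex III passes them to cytochrome c, and complex IV passes them to oxygen. Complexes I, III and IV pump protons as they do so, and complex V (ATP synthase) uses the gradient to make ATP. A small set of subunits is encoded by mitochondrial DNA and the rest by nuclear genes, so the enzymes are assembled from both genomes. White adipocytes use the chain for lipid synthesis and oxidation, and brown and beige adipocytes hold many mitochondria in which Ucp1 lets protons return without making ATP.

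Promoter windows in RefSeq's mouse annotation (GRCm38.p6, which is not the build of the count table) were searched because the members moved together across libraries. Each window runs from 250 bases before to 50 bases after a gene's start, and 66 of the 88 members matched by symbol. The element of nuclear respiratory factor 1, GCGCA and GCGC with any 1 base between them, was present on either strand in 17 members (25.8%), against 1402 of 27025 genes with a window (5.19%). The ETS-family element CCGGAAG was present in 16 members (24.2%), against 9.93% of all genes. AAGATGGC, an element of YY1, was present in 9 members (13.6%) against 3.19%, and TCAAGGTCA, an element of the estrogen-related receptors, in 2 members (3.03%) against 0.466%. At least 1 of the 4 elements lay in 36 members (54.5%) against 16.8% of all genes. These matches describe letters in a window and not bound sites. Windows are shown for Sdhd, the only member with 3 of the 4 elements, for Uqcrh and Atp5c1, which are followed through the diets below, and for Atp5h, which had the smallest adjusted p between strains. They were chosen after the matches were seen. All lie on the minus strand and are written 5′ to 3′ in the direction of the gene, with matched elements in capitals. In Sdhd (chr9:50603800-50604099) the capitals are, in order, the nuclear respiratory factor 1, ETS and estrogen-related receptor elements. In Uqcrh (chr4:116075021-116075320) they are an ETS element, in Atp5c1 (chr2:10080383-10080682) a nuclear respiratory factor 1 element, and in Atp5h (chr11:115419870-115420169) a nuclear respiratory factor 1 and an ETS element.
Sdhd: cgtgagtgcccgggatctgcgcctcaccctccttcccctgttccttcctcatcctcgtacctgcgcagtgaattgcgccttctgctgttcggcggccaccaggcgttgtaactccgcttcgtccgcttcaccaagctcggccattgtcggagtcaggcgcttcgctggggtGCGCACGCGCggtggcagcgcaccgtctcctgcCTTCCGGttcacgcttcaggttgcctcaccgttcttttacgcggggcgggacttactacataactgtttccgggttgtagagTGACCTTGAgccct
Uqcrh: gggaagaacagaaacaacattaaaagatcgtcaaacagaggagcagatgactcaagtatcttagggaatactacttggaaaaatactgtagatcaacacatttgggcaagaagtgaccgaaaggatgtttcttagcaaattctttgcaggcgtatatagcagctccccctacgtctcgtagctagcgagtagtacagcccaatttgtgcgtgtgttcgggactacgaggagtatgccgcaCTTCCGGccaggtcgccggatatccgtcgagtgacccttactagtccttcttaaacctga
Atp5c1: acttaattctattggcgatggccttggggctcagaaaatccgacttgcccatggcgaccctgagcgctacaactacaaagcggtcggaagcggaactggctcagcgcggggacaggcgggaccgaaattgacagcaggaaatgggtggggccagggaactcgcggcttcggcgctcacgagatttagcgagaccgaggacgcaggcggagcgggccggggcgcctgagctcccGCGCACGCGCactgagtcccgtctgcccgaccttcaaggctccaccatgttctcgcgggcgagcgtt
Atp5h: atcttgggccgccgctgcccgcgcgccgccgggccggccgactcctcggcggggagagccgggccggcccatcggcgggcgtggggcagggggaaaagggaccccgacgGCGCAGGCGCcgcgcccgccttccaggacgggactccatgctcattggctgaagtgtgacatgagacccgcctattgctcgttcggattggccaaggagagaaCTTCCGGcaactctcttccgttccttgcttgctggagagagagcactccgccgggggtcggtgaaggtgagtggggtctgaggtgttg

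Library totals ranged from 47651641 to 84009032 counts, and the member genes took 0.546% to 1.64% of a library's counts. Levels below are CPM, the read count scaled to the size of its library with TMM (trimmed mean) factors, and a gene was called changed at a Benjamini-Hochberg adjusted p below 0.05 in edgeR's quasi-likelihood test over all 20035 genes that passed the filter on low counts. Cell type markers and their sums are instead CPM over unscaled library totals, so they are not on the same scale as the members. The filter kept 85 of the 88 members. Cox7b2, a testis isoform, had no count in any library, and the copies Ndufa11b and Ndufs6b were near 0. One library does not carry the profile of its label: the library labelled CAST/EiJ high-fat replicate 1 had 4.75 CPM of the adipocyte hormone Adipoq, against at least 621 CPM in every other library, and 239 CPM over the 10 adipocyte markers, against at least 10710. It also had 175.1 CPM of the epithelial gene Epcam. Its smooth muscle markers summed to 13640 CPM, its reproductive tract markers to 2577 CPM and its kidney markers to 4018 CPM. Of the kidney sum 4015 CPM was Kap, and each of these 3 sums was the highest of the 24 libraries. In all, 6 libraries had Epcam at 5 CPM or more: this one, C57BL/6J high-fat replicate 1, WSB/EiJ standard replicate 3 and the 3 WSB/EiJ high-fat libraries. Each count that leads a comparison is therefore also given without the first library, and without all 6 where that leaves a comparison. In a bulk sample, fewer cells of a type and less RNA per cell cannot be told apart.

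Expression of the members differed widely in scale. Per kilobase of transcript, the mean level over the 24 libraries was highest for subunits of ATP synthase. The catalytic beta subunit Atp5b stood at 962.6 CPM per kb, the c subunit gene Atp5g3 at 528.1, the alpha subunit Atp5a1 at 480.1 and the gamma subunit Atp5c1 at 443.7. Uqcrh, the hinge protein of complex III, stood at 384.7 CPM per kb and the complex IV subunit Cox6a1 at 343.2. At the other end lay tissue or oxygen-dependent isoforms of complex IV. Cox6a2, the heart and skeletal muscle isoform, averaged 0.85 CPM per kb, Cox6b2 of testis 1.65, Cox4i2, a lung isoform induced by low oxygen, 1.96 and Ndufa4l2, induced by low oxygen, 2.34. Their widespread counterparts Cox4i1 and Ndufa4 stood at 222.6 and 168.5 CPM per kb.

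Most members rose and fell together from library to library. Each member's log2 level was compared with the median of the other members over the 24 libraries, as a description, since all points share their libraries and scaling. The median Pearson r over the 85 tested members was 0.94, and 61 members had r of 0.9 or more. These values include CAST/EiJ high-fat replicate 1 and the differences between strains and diets. No r was computed without that library or for genes outside the set. Only 7 had r below 0.5: Ndufa4l2 (-0.36), Cox4i2 (-0.33), Cox7a2l (-0.13), Cox6a2 (-0.05), Atp5g1 (0.06), Atp5h (0.14) and Cox6b2 (0.46). These 7 include the low isoforms and 3 genes that share sequence with other genomic copies, which are described further on.

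**Figure D1:**
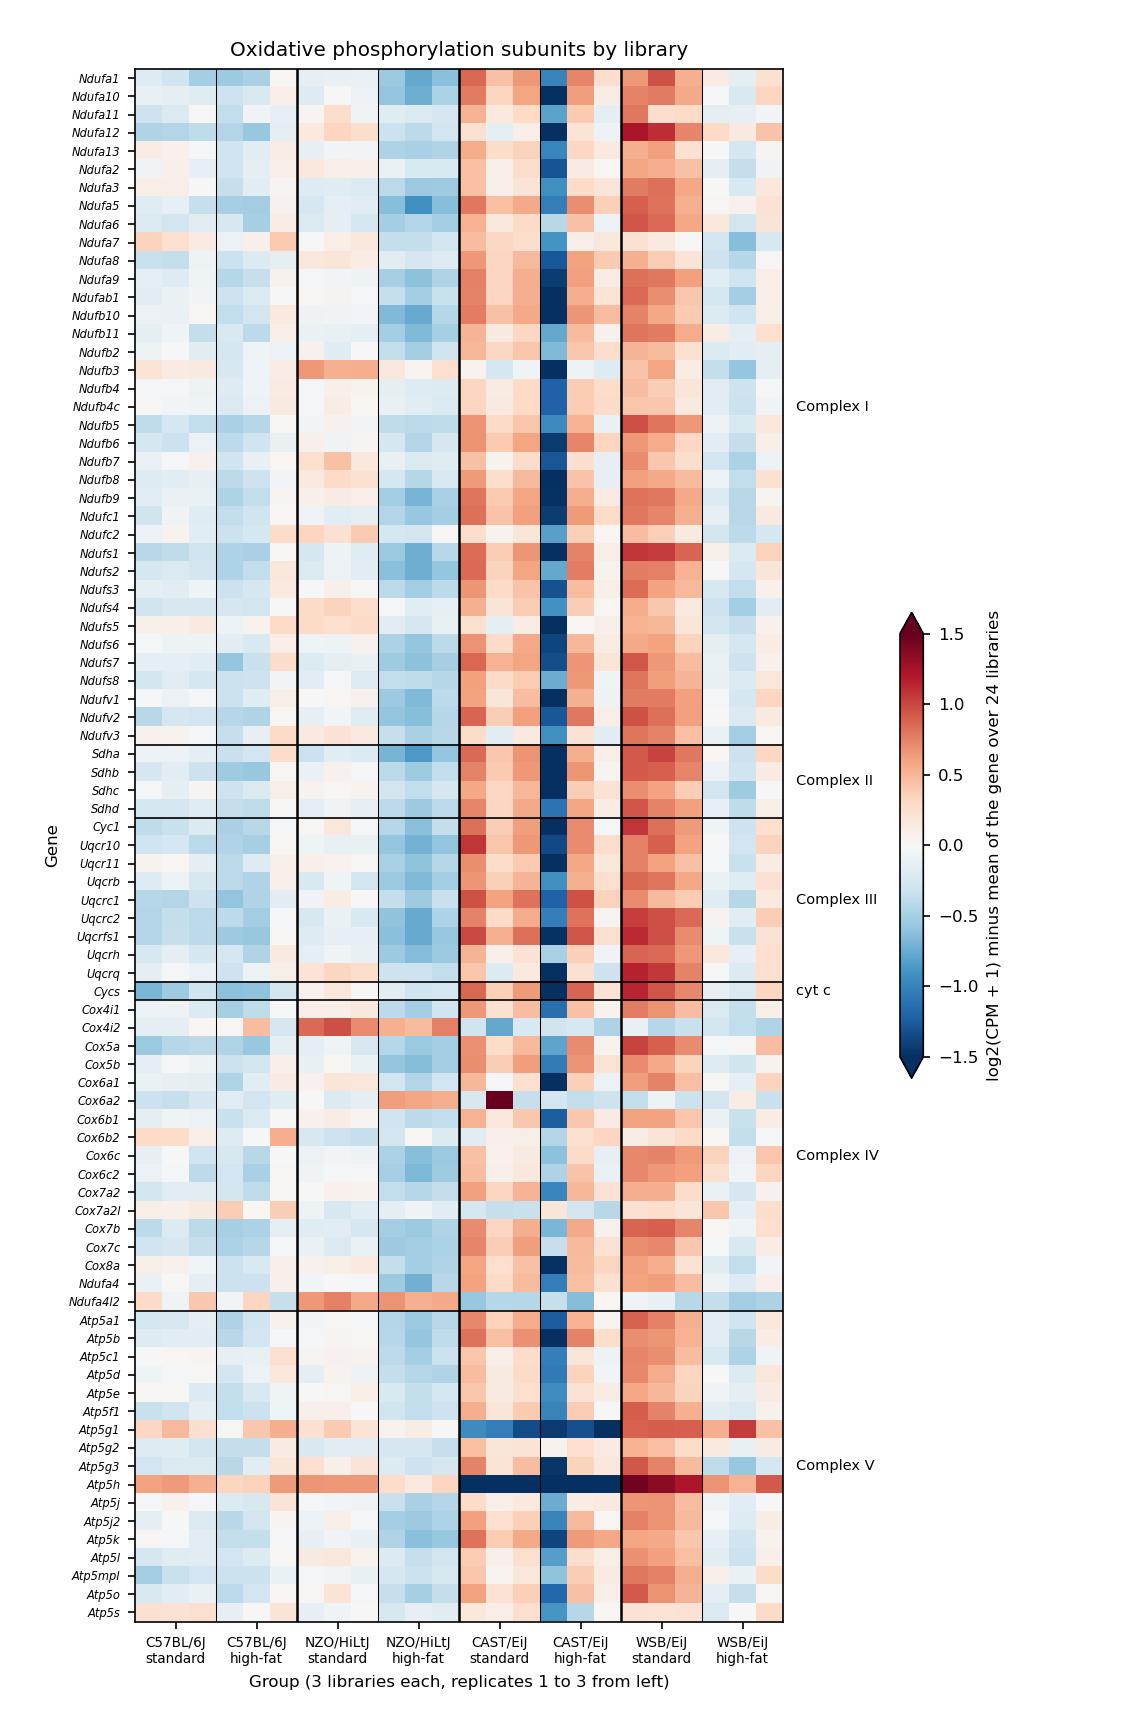
Heat map of the tested members (rows, by complex) in the 24 libraries (columns, by strain and diet); colour is each member's log2(CPM + 1) minus its mean over all libraries. The WSB/EiJ and CAST/EiJ standard-diet columns are mostly above the mean, the CAST/EiJ high-fat replicate 1 column is mostly far below it, and Atp5h and Atp5g1 are low in all CAST/EiJ columns.

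Summed over members, the level on the standard diet was 10200, 10460 and 10370 CPM in the C57BL/6J libraries and, in NZO/HiLtJ, 11320, 11760 and 11460 CPM. It was 17900, 13710 and 15810 CPM in CAST/EiJ and 19950, 18970 and 16570 CPM in WSB/EiJ. The CAST/EiJ and WSB/EiJ libraries thus lay above all libraries of the other strains on this diet. On the high-fat diet the sum was 8900, 9420 and 12040 CPM in C57BL/6J, 8615, 7936 and 8793 in NZO/HiLtJ, 4708, 16250 and 12060 in CAST/EiJ, and 10780, 9348 and 12650 in WSB/EiJ. The diet groups did not overlap in NZO/HiLtJ and WSB/EiJ, and they overlapped in C57BL/6J and CAST/EiJ. Group means moved from 10340 ± 132 to 10120 ± 1683 CPM in C57BL/6J, from 11510 ± 224.8 to 8448 ± 452.2 in NZO/HiLtJ, from 15810 ± 2095 to 11010 ± 5843 in CAST/EiJ and from 18500 ± 1739 to 10930 ± 1656 in WSB/EiJ (SD, n = 3 mice).

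**Figure D2:**
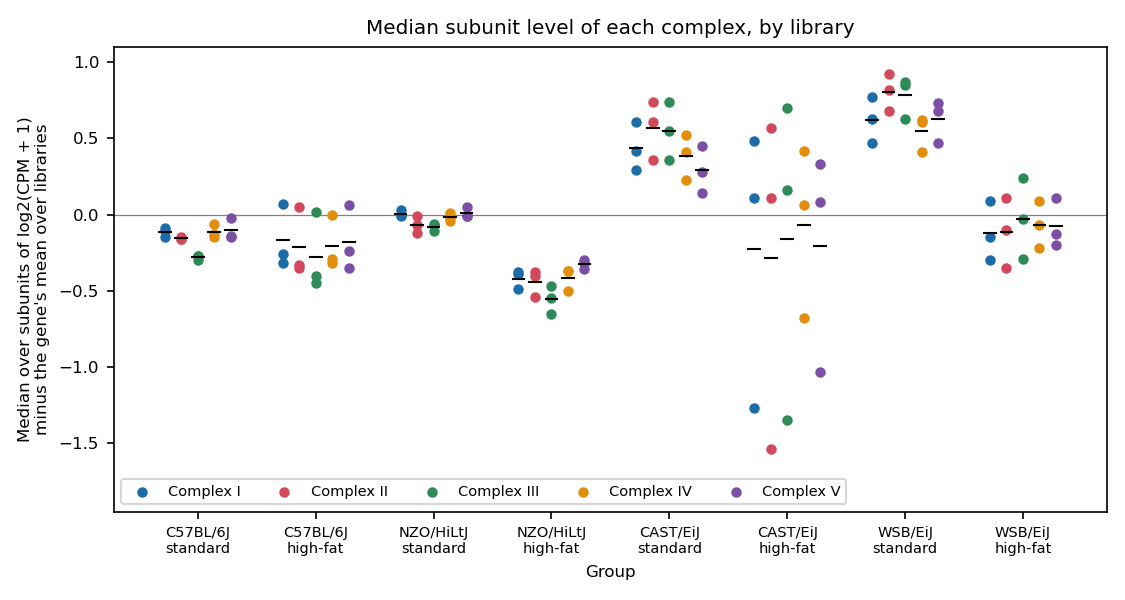
Median over members of the log2(CPM + 1) deviation from each gene's mean (vertical axis) for every library, by strain and diet; each point is 1 library. The standard-diet and high-fat points are apart in NZO/HiLtJ and WSB/EiJ and mixed in C57BL/6J, and CAST/EiJ high-fat replicate 1 is the lowest point.

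The first comparison asks how the high-fat diet moved the subunits over the 4 strains together. With the diet effect averaged over strains, 66 of the 85 members were lower on the high-fat diet and 0 were higher, where 11.8% of all genes tested were called lower and 17.1% higher. The median log2 fold change of the members was -0.42, beside 0.05 over all genes, and 84 of 85 members had a value below 0, where 44.3% of all genes did. Every complex took part: 30 of 37 members fell in complex I, 4 of 4 in complex II, 8 of 9 in complex III, 11 of 17 in complex IV and 13 of 17 in complex V. Cycs, the single cytochrome c gene, did not pass (adjusted p = 0.112), though it did without CAST/EiJ high-fat replicate 1 (0.0155) or 2 (0.0222). In complex II, the call of Sdha (log2 fold change -0.52, adjusted p = 0.0347) was lost in 14 of the 24 omissions of a single library. The smallest adjusted p values by complex belonged to Atp5c1, the gamma subunit that turns within ATP synthase (log2 fold change -0.46 ± 0.10 SE, edgeR adjusted p = 0.00707), Cox7c of complex IV (-0.37 ± 0.08, 0.00731), Ndufv3 of the NADH-binding module of complex I (-0.46 ± 0.11, 0.00908), Uqcrh (-0.35 ± 0.09, 0.011) and Sdhd, a membrane anchor of succinate dehydrogenase (-0.44 ± 0.13, 0.0222). Each of these 5 stayed below 0.05 with any single library left out. The count of called members was 78 without CAST/EiJ high-fat replicate 1 (15% of all genes called lower) and 9 over 3 strains without the 6 libraries (5.9% lower), where WSB/EiJ had no high-fat library left. The median was -0.33 without the first of these and -0.17 without the 6. With the level of the adipocyte markers as a covariate, added after the data were seen, 44 members were called and the median was -0.21. Of all genes, 6.96% were called lower and 7.23% higher in that fit. The count was 35 without C57BL/6J high-fat replicate 1, 38 without CAST/EiJ standard replicate 1, 39 without NZO/HiLtJ high-fat replicate 2, 39 without WSB/EiJ standard replicate 1 and 41 without WSB/EiJ high-fat replicate 2.

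The strains were then taken one at a time. Of the 85 members, 51 had a negative log2 fold change in all 4 strains and 30 in 3 of them, and the most negative of the 4 values was in WSB/EiJ for 78 members. These patterns were not counted over all genes. WSB/EiJ also had the largest share of all genes called for diet in either direction (21.5%). That share was 4.89% in NZO/HiLtJ, 4.87% in CAST/EiJ and 0.00998% in C57BL/6J. The fold changes of the 4 strains come from separate mice but share 1 estimate of the spread.

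In WSB/EiJ, 32 members fell on the high-fat diet and 0 rose, where 8.61% of all genes were called lower and 12.9% higher, and the median log2 fold change was -0.69 beside 0.07 over all genes. By complex, 13 of 37 members fell in complex I, 1 of 4 in II, 3 of 9 in III, 4 of 17 in IV and 11 of 17 in V. The CPM of 79 members did not overlap between the diets and was lower in all 3 high-fat libraries, where 21.6% of all genes showed that. Ndufa6 of complex I was measured at 51.1, 47.7 and 39.6 CPM with the standard diet and 29.2, 21.4 and 30.1 CPM with the high-fat one. All high-fat libraries lay below all standard ones, and the log2 fold change was -0.78 ± 0.19 (adjusted p = 0.0119). Ndufv3 stood at 110.8, 106.6 and 86.6 CPM and then at 58.7, 44.2 and 64.6 CPM, again with no overlap (-0.86 ± 0.22, adjusted p = 0.0141). Ndufa6 lost its call without WSB/EiJ standard replicate 1 (adjusted p = 0.0646) or high-fat replicate 2 (0.0589). Ndufv3 lost its call without either of these libraries or standard replicate 2 (up to 0.0699).

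Succinate dehydrogenase, the enzyme shared with the citric acid cycle, had lower levels of all 4 subunits in every WSB/EiJ high-fat library than in any standard-diet one. The anchor subunit Sdhd fell from 136.5, 119.4 and 109.0 CPM to 64.8, 54.3 and 75.3 CPM (log2 fold change -0.91 ± 0.27, adjusted p = 0.0236). The flavoprotein Sdha stood at 632.2, 674.7 and 579.4 CPM and then at 340.6, 267.6 and 416.3 CPM. Its log2 fold change of -0.88 ± 0.35 was close to that of Sdhd but did not pass the test (adjusted p = 0.0795), nor did the iron-sulfur subunit Sdhb (-0.93 ± 0.33, 0.0509) or the anchor Sdhc (-0.82 ± 0.29, 0.0507). All 3 passed without CAST/EiJ high-fat replicate 1, with adjusted p of 0.00119, 0.00059 and 0.000256, and without CAST/EiJ high-fat replicate 2 (0.0496, 0.0213 and 0.0369). Sdhc also passed without CAST/EiJ high-fat replicate 3 (0.0463) or WSB/EiJ high-fat replicate 3 (0.045). Sdhd lost its call without WSB/EiJ standard replicate 1 (0.0971) or 2 (0.0632) or high-fat replicate 1 (0.0519) or 2 (0.102).

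In complex III and cytochrome c the libraries fell in the same order. Uqcrh was measured at 319.7, 315.6 and 274.5 CPM in WSB/EiJ with the standard diet and at 195.1, 160.3 and 208.8 CPM with the high-fat one, without overlap (log2 fold change -0.69 ± 0.18, adjusted p = 0.0145). Uqcrb, a ubiquinone-site subunit, fell by 0.77 on the log2 scale (adjusted p = 0.0326). Uqcrh lost its call without WSB/EiJ standard replicate 1 or 2 or high-fat replicate 2 (adjusted p up to 0.0701). Uqcrb lost its call in these fits and without high-fat replicate 1 (up to 0.121). Cycs, cytochrome c itself, stood at 307.1, 267.0 and 228.1 CPM and then at 127.2, 118.7 and 173.2 CPM. The groups did not overlap, but with -0.94 ± 0.43 it did not pass (adjusted p = 0.119), nor did Cyc1, cytochrome c1 (-0.89 ± 0.36, 0.0862). Cycs and Cyc1 both passed without CAST/EiJ high-fat replicate 1 (0.00107 and 0.00182), and Cyc1 without CAST/EiJ high-fat replicate 2 (0.0381).

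In complex IV, Cox7c, a small membrane subunit, fell in WSB/EiJ from 163.7, 167.5 and 134.1 CPM to 99.7, 86.3 and 109.1 CPM (log2 fold change -0.66 ± 0.17, adjusted p = 0.0136). Cox4i1, the widespread form of the regulatory subunit 4, fell from 274.8, 256.9 and 221.4 CPM to 138.1, 125.1 and 170.6 CPM (-0.80 ± 0.25, adjusted p = 0.033). Both sets of libraries were apart. Cox7c lost its call without WSB/EiJ standard replicate 1 or 2 or high-fat replicate 2 (adjusted p up to 0.0659). Cox4i1 lost its call in these fits and without high-fat replicate 1 (up to 0.125). In complex V, Atp5c1 fell from 828.6, 814.5 and 690.1 CPM to 426.4, 364.0 and 476.6 CPM, with no overlap (-0.88 ± 0.21, adjusted p = 0.0103). Atp5j, coupling factor 6 of the peripheral stalk, fell by 0.67 on the log2 scale (adjusted p = 0.0134). Its call was lost without WSB/EiJ standard replicate 1 or 2 or high-fat replicate 2 (up to 0.0629).

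The 3 genes that encode the same c subunit of the ATP synthase ring, with different import leaders, were not equally affected in WSB/EiJ. Atp5g3 fell from 683.4, 601.4 and 496.6 CPM to 275.2, 241.8 and 298.7 CPM, the most negative fold change of any member in this strain (-1.13 ± 0.29, adjusted p = 0.0149). Atp5g2 fell from 73.2, 69.4 and 61.3 CPM to 55.8, 46.8 and 54.9 CPM (-0.37 ± 0.12, adjusted p = 0.0344). Atp5g1 was measured at 76.9, 78.1 and 77.6 CPM and then at 60.6, 86.3 and 56.1 CPM, which overlap (-0.20 ± 0.15, adjusted p = 0.364). The differences between these 3 fold changes were not tested. Atp5g3 lost its call without WSB/EiJ standard replicate 1 (adjusted p = 0.0723) or high-fat replicate 2 (0.0634). Atp5g2 lost its call without either of these libraries or standard replicate 2 (up to 0.139). Without a WSB/EiJ high-fat library the value of Atp5g1 ranged from -0.43 (replicate 2 left out) to -0.09 (replicate 3) and was -0.13 without replicate 1, and it passed in none of these fits.

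The WSB/EiJ count depended on single libraries. It was 0 without WSB/EiJ standard replicate 1, 3 without standard replicate 2, 13 without high-fat replicate 1 and 1 without high-fat replicate 2. It was 78 without CAST/EiJ high-fat replicate 1 (17.9% of all genes called lower) and 53 without CAST/EiJ high-fat replicate 2, libraries that enter the WSB/EiJ contrast only through the shared estimate of the spread. The log2 fold change of Atp5c1 ranged from -0.99 to -0.80 over all 24 such fits, and its call was lost only without WSB/EiJ standard replicate 1 (0.0559). Beside the lower subunits, the summed adipocyte markers went from 23200-27980 CPM on the standard diet to 10710-15600 CPM with high-fat feeding in WSB/EiJ, with 10 of 10 markers detected in every library. The summed epithelial markers went from 20.3-48.9 to 236.1-885.6 CPM and the smooth muscle markers from 152-1018 to 1461-6260 CPM. Markers of other tissues stood out in single high-fat libraries: brain markers summed to 2657 CPM in replicate 2 (43.8-68.1 in the other WSB/EiJ libraries), urothelial markers to 1009 CPM in replicate 3 (48.9-52.9 on the standard diet), and reproductive tract markers to 340.2 and 400.8 CPM in replicates 1 and 2 (11.4-57.1 on the standard diet). Their part in the lower subunit levels was not tested. With the adipocyte marker level as a covariate, added after the data were seen, 71 members were called lower in WSB/EiJ (12.9% of all genes) and the median was -0.48. The adipocyte sums did not overlap between the diets in this strain, so that fit cannot separate marker level from diet.

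**Figure D3:**
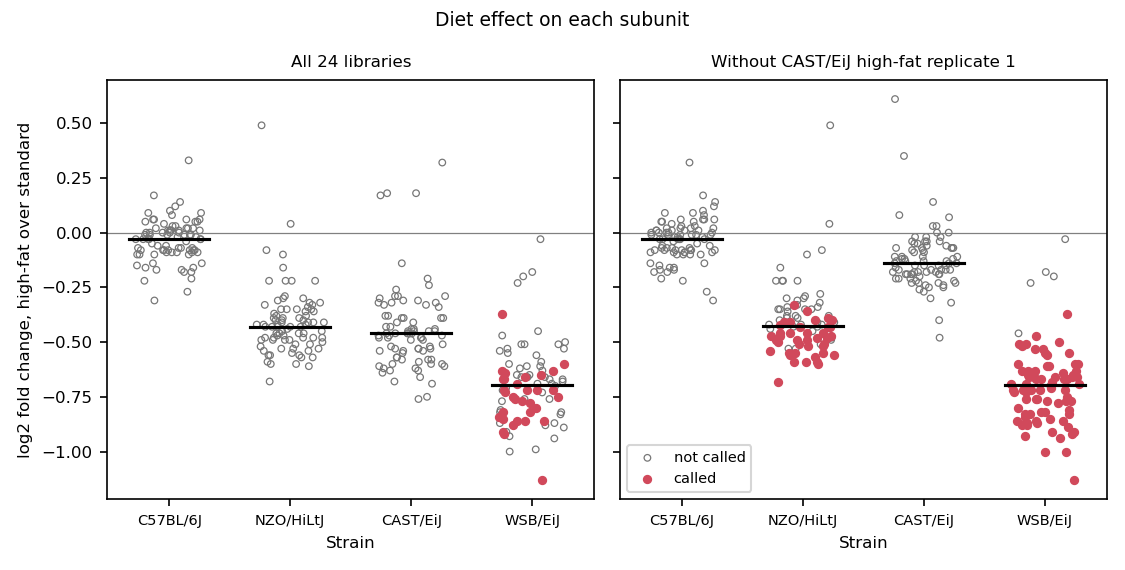
Log2 fold change of each tested member on the high-fat against the standard diet (vertical axis), by strain (horizontal axis), with all 24 libraries on the left and without CAST/EiJ high-fat replicate 1 on the right. Filled red points passed the test, black bars are medians, and Cox6a2 is not drawn; the WSB/EiJ and NZO/HiLtJ medians differ little between the panels while the CAST/EiJ median goes from -0.46 to -0.14.

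In NZO/HiLtJ 0 members were called on the high-fat diet with all libraries by edgeR, and 0 by DESeq2, while 1.94% of all genes were called lower and 2.95% higher. At an unadjusted p below 0.05 there were 14, and the smallest adjusted p was 0.108, for Cox6c2, a copy that shares sequence with Cox6c. The median log2 fold change was nevertheless -0.43 beside -0.01 over all genes, 82 of 85 members had a value below 0, where 50.8% of all genes did, and 79 members were lower in all 3 high-fat libraries than in any standard one, where 23.8% of all genes were. The non-overlapping members were 37 of 37 in complex I, 4 of 4 in II, 9 of 9 in III, Cycs, 12 of 17 in IV and 16 of 17 in V. Atp5c1 was measured at 515.2, 521.5 and 518.6 CPM on the standard diet and 379.7, 352.0 and 399.2 CPM after high-fat feeding. These libraries varied little within a group, and the log2 fold change was -0.46 (adjusted p = 0.28). Ndufb9 of complex I went from 70.4, 72.9 and 71.6 CPM to 46.1, 40.6 and 47.2 CPM (-0.68, adjusted p = 0.277), and Uqcrh from 159.4, 166.4 and 161.5 CPM to 119.0, 111.1 and 118.9 CPM (-0.48 ± 0.18, 0.156).

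Without CAST/EiJ high-fat replicate 1, 40 members were called lower in NZO/HiLtJ and 0 higher, where 5.49% of all genes were called lower, and the median was -0.42. These were 20 members of complex I, 0 of II, 3 of III, 8 of IV and 9 of V. Atp5c1 then had an adjusted p of 0.0215, Ndufb9 of 0.00613 and Uqcrh of 0.0408, at the same fold changes. Without CAST/EiJ high-fat replicate 2, 1 member passed, Cox6c2 (-0.59, adjusted p = 0.0419). Without all 6 libraries, none of which is from NZO/HiLtJ, 62 members were lower in NZO/HiLtJ and 0 higher, beside 10.1% of all genes. The summed adipocyte markers went from 21130-21350 to 12830-15890 CPM in this strain and the macrophage markers from 568.1-854.9 to 2361-3343 CPM, with 0 of the 10 adipocyte markers at 0 in any library. Liver markers went from 943.0, 1603.0 and 168.2 CPM on the standard diet to 43.2, 26.1 and 12.7 CPM after high-fat feeding, and kidney markers from 8.63, 81.0 and 29.3 to 1.54, 2.06 and 2.19 CPM, both without overlap. The part of these marker levels in the lower subunit levels was not tested. In the fit with the adipocyte level as a covariate, 19 members were lower (4.25% of all genes) and the median was -0.31. That fit cannot separate marker level from diet, because the adipocyte sums did not overlap between the diets in this strain. The covariate also includes the extreme value of CAST/EiJ high-fat replicate 1 (239 CPM).

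In CAST/EiJ the high-fat libraries were far apart. Sdha was measured at 601.5, 444.1 and 532.3 CPM on the standard diet and at 94.0, 487.1 and 358.1 CPM after high-fat feeding, and Cycs at 252.1, 177.1 and 216.6 CPM and then at 28.6, 253.9 and 160.8 CPM. In both genes the lowest value was the library labelled high-fat replicate 1, and replicate 2 lay within or above the standard-diet range. The median log2 fold change over members was -0.46 with all libraries and -0.14 without that library. The only member called was Cox6a2, lower by 6.43 on the log2 scale (adjusted p = 0.0482), where 1.6% of all genes were called lower and 3.27% higher. It rested on 1 library: Cox6a2 stood at 9.09 CPM in CAST/EiJ standard replicate 2 and at 0.0887 and 0.0162 CPM in the other standard-diet mice. The same library carried 5849 CPM over the 14 skeletal muscle markers, with a lowest sum of 47.1 CPM in its group, and without it the fold change of Cox6a2 was -0.60. Its call was also lost in 20 other fits that left out 1 library and in the fits with no filter on low counts, without the 6 libraries and with a muscle or adipocyte covariate. Atp5s, an ATP synthase-linked gene that is not a true subunit, had the next smallest adjusted p (0.0657, log2 fold change -0.76). That value was -0.48 without high-fat replicate 1, and it was -1.17 and passed without high-fat replicate 3 (0.00494). With high-fat replicate 2 left out, 55 members were called, with replicate 3 left out 3, and with replicate 1 left out 0 (smallest adjusted p 0.168, beside 0.304% of all genes called). The first 2 of these fits keep replicate 1, which had 239 CPM of adipocyte markers. The share of all genes called in them is not given here, so 55 and 3 cannot be read as particular to the members.

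In C57BL/6J no difference was detectable. By edgeR 0 members passed, 0 had an unadjusted p below 0.05, and DESeq2 called 0, beside 0.00998% of all genes called. The median log2 fold change was -0.03, and 53 members lay below 0, where 46.7% of all genes did. Atp5c1 was measured at 501.3, 507.6 and 516.2 CPM on the standard diet and 458.4, 463.5 and 593.6 CPM after high-fat feeding, and Sdhd at 58.8, 58.9 and 62.0 CPM and then at 54.8, 54.3 and 71.6 CPM. The standard-diet mice were close to each other, and high-fat replicate 3 lay above all of them in both genes while replicates 1 and 2 lay below.

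Whether the diet effect differed between strains was tested by the strain by diet interaction. With all libraries 0 of 85 members passed in edgeR or DESeq2, beside 3.08% of all genes in edgeR, and 2 had an unadjusted p below 0.05 (Cox6a2 and Atp5g3). Without CAST/EiJ high-fat replicate 1, 35 members passed, beside 17.6% of all genes, with the smallest adjusted p for Atp5g3 (0.00657), Atp5l (0.0101) and Atp5c1 (0.013). Without all 6 libraries, over 3 strains, 2 passed beside 6.92%. With any other single library left out, 0 passed. The diet effects of single pairs of strains were not tested against each other.

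The strain comparisons were made on the standard diet, where 1 of the 6 libraries above, WSB/EiJ standard replicate 3, takes part. Over all strains 49 of the 85 members differed, a share near the 49.6% of all genes called. Without CAST/EiJ high-fat replicate 1 it was 81, beside 64.4%. In WSB/EiJ, 45 members were higher than in C57BL/6J and 0 were lower, where 10.1% of all genes were called higher and 11.9% lower. The median log2 fold change was 0.77, and the levels of 78 members lay above C57BL/6J in every library, where 23.9% of all genes did. The higher members were 15 in complex I, 3 in II, 7 in III, Cycs, 7 in IV and 12 in V. Atp5mpl, a small membrane subunit of ATP synthase, stood at 35.5, 34.6 and 29.7 CPM in WSB/EiJ against 13.7, 15.7 and 16.3 CPM in C57BL/6J (1.13 ± 0.18, adjusted p = 0.00028). Cox7b of complex IV stood at 151.1, 153.9 and 137.3 CPM against 62.2, 71.4 and 62.0 CPM (1.18 ± 0.20, 0.00052). In both genes all WSB/EiJ libraries were above all C57BL/6J libraries.

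Over all complex I members the median log2 fold change over C57BL/6J was 0.75 in WSB/EiJ, 0.60 in CAST/EiJ and 0.13 in NZO/HiLtJ. Ndufa12 of complex I stood at 76.6, 71.0 and 54.5 CPM in WSB/EiJ, against 35.8, 40.5 and 39.0 CPM in NZO/HiLtJ, 23.3, 23.6 and 24.5 CPM in C57BL/6J and 38.5, 29.4 and 34.5 CPM in CAST/EiJ. WSB/EiJ was above the other 3 strains in every library, C57BL/6J was below them, and NZO/HiLtJ and CAST/EiJ overlapped. Its log2 fold change was 1.5 ± 0.29 over C57BL/6J (adjusted p = 0.00114). For Uqcrh the value was 1.02 ± 0.18 (0.000586), for Uqcrc2, a core protein of complex III, 1.36 ± 0.29 (0.00264), for Sdhd 1.02 ± 0.27 (0.0101) and for Cycs 1.45 ± 0.43 (0.022). The call of Cycs was lost without C57BL/6J standard replicate 1 or 2 or WSB/EiJ standard replicate 1 or 2 (adjusted p up to 0.0831). The count of 45 became 77 without CAST/EiJ high-fat replicate 1 (16.5% of all genes called higher) and 78 without all 6 libraries (19.9%). It became 25, 28 and 25 without C57BL/6J standard replicates 1, 2 and 3, 24 without WSB/EiJ standard replicate 1 and 26 without standard replicate 2.

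CAST/EiJ was also above C57BL/6J for many members. In CAST/EiJ 25 members were higher, where 12.6% of all genes were, and 4 were lower, where 15.3% were, with a median log2 fold change of 0.58. Cox7c stood at 168.3, 131 and 156.3 CPM in CAST/EiJ against 81.9, 84.6 and 79.4 CPM in C57BL/6J, with no overlap (0.89 ± 0.17, adjusted p = 0.000608). Uqcrc1, the other core protein of complex III, stood at 308.4, 241.7 and 279.5 CPM against 117.4, 116.5 and 127.3 CPM (1.2 ± 0.32, 0.00899), and 2 of these CAST/EiJ libraries lay above all WSB/EiJ ones (259.4, 221.8 and 207.6 CPM). Sdhd (0.80 ± 0.26, 0.0313) and Ndufa1 of complex I (1.03 ± 0.29, 0.0125) were higher too. Sdhd lost its call without any 1 of the C57BL/6J standard libraries or without CAST/EiJ standard replicate 1 or 3 (adjusted p from 0.0685 to 0.113), and Ndufa1 without C57BL/6J standard replicate 3 (0.0537) or CAST/EiJ standard replicate 1 (0.054). The 29 calls became 71 without CAST/EiJ high-fat replicate 1 (39.6% of all genes called), 46 without high-fat replicate 2, 9, 15 and 10 without C57BL/6J standard replicates 1, 2 and 3, and 9 and 16 without CAST/EiJ standard replicates 1 and 3.

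In NZO/HiLtJ against C57BL/6J only 1 member passed, Cox4i2, which was higher, beside 4.28% of all genes called higher and 4.08% lower. The median log2 fold change was 0.14, and 13 of 85 members had a value below 0, where 50.4% of all genes did. The levels of 46 members lay above C57BL/6J in every NZO/HiLtJ library, where 23% of all genes did. The count of 1 was 0 without C57BL/6J standard replicate 1 or 2 and 8 without CAST/EiJ high-fat replicate 1. In the latter fit 16.2% of all genes were called, above the share of the members. Against CAST/EiJ, NZO/HiLtJ had 4 members higher (18.9% of all genes) and 12 lower (16.3%), with a median of -0.45. The 16 calls became 60 without CAST/EiJ high-fat replicate 1 (46.6% of all genes called) and 28 without replicate 2, and 7, 8 and 7 without NZO/HiLtJ standard replicates 1, 2 and 3 and 8 and 8 without CAST/EiJ standard replicates 1 and 3. Against WSB/EiJ it had 2 higher (15.7%) and 32 lower (12.4%), with a median of -0.63, led by Ndufa6 (-1.03, adjusted p = 0.000649) and Uqcrh (-0.90, 0.00115). The 34 calls became 74 without CAST/EiJ high-fat replicate 1 (40.4% of all genes called), 19 and 20 without NZO/HiLtJ standard replicates 1 and 3, and 17 and 22 without WSB/EiJ standard replicates 1 and 2.

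CAST/EiJ and WSB/EiJ, the strains with the highest levels, differed in 6 members: 1 higher in CAST/EiJ (Cox6a2, 11.8% of all genes) and 5 lower (11.6%), with a median of -0.20. The lower members were Atp5h, Atp5g1, Cox7a2l, Ndufa12 (-0.98 ± 0.28, adjusted p = 0.0163) and Uqcrh (-0.51 ± 0.18, 0.0428). Ndufa12 lost its call without CAST/EiJ standard replicate 2 (0.0754) or WSB/EiJ standard replicate 1 (0.0667). A copy of Ndufa12, Gm15920, took 22.6% of the joint counts, and with copies summed the value was -0.76 and the call was lost (0.0582). Summing the copies of all members left 4 calls, 1 higher and 3 lower. Uqcrh lost its call in 16 of the 24 single-library omissions. Cox6a2 again rested on CAST/EiJ standard replicate 2, without which its value went from 5.19 to -0.65. Its call was also lost without WSB/EiJ standard replicate 1 or 3. The 6 calls became 20 without CAST/EiJ high-fat replicate 1, 10 without high-fat replicate 2, and 3 without CAST/EiJ standard replicate 2 or WSB/EiJ standard replicate 1. In the first of these fits 33.9% of all genes were called, above the share of the members.

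Beside the strain differences, the summed adipocyte markers on the standard diet were 18270-22020 CPM in C57BL/6J, 21130-21350 in NZO/HiLtJ, 27950-31640 in CAST/EiJ and 23200-27980 in WSB/EiJ. The 8 brown adipocyte markers, which include Ucp1 and Cidea, summed to 9.95-17.8 CPM in C57BL/6J, 49.6-69.4 in NZO/HiLtJ, 206-231.7 in CAST/EiJ and 160.2-190.6 in WSB/EiJ, with none at 0 in any library. In both the brown markers and the members C57BL/6J was lowest and NZO/HiLtJ next. CAST/EiJ lay above WSB/EiJ in the markers, and the same strains overlapped in the members. On the high-fat diet the brown markers summed to 181.4-303.9 CPM in WSB/EiJ. In high-fat replicates 1 and 2 much of that sum was the deiodinase Dio2 (86.2 and 135.0 CPM, against 1.08, 3.25 and 6.97 on the standard diet). Without Dio2 the sum was 95.3, 126.5 and 300.3 CPM, against 159.1, 172.1 and 183.8 CPM on the standard diet. Cidea, a lipid droplet protein, stood at 48.4, 61.6 and 53.6 CPM and then at 29.0, 30.7 and 89.7 CPM, and Elovl3, a fatty acid elongase, at 44.5, 38.4 and 40.7 CPM and then at 5.88, 6.1 and 12.2 CPM. Elovl3 was thus lower in all high-fat libraries, and Cidea in replicates 1 and 2 only. The other brown markers were mixed. Cox7a1 was higher in every high-fat library (2.04, 2.15 and 2.82 CPM, then 3.26, 3.74 and 9.51 CPM). Ucp1 went from 21.7, 22.9 and 34.2 CPM to 24.6, 49.7 and 131.3 CPM, with overlap. Otop1 went from 6.18, 6.6 and 7.83 CPM to 7.47, 9.11 and 23.4 CPM, with overlap. Cox8b went from 17.3, 23.6 and 21.5 CPM to 11.8, 10.8 and 20.1 CPM, and Ppargc1a is given below. Dio2 also made up 167.2 of the 175.3 CPM of brown markers in CAST/EiJ high-fat replicate 1. With the adipocyte level as a covariate, 76 members were higher in WSB/EiJ than in C57BL/6J (16.2% of all genes). In CAST/EiJ 60 were higher (18.4% of all genes) and 5 lower (20.8%). The part of brown adipocyte content in these differences was not tested.

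**Figure D4:**
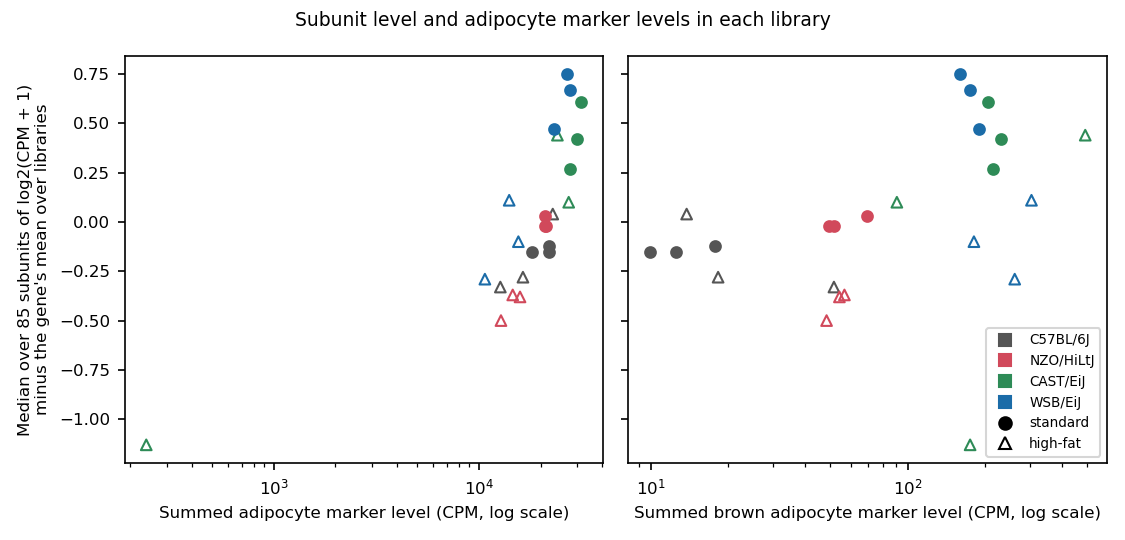
Median member deviation (log2 units, vertical axis) of each library against the summed CPM of the adipocyte markers and of the brown adipocyte markers (log horizontal axes), coloured by strain with the diets marked. The library labelled CAST/EiJ high-fat replicate 1 has 239 CPM of adipocyte markers and the lowest members, and its brown markers of 175.3 CPM are mostly Dio2 (167.2 CPM). The WSB/EiJ high-fat libraries have brown markers of 181.4 to 303.9 CPM, in which Dio2 is 86.2 and 135.0 CPM in replicates 1 and 2.

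The isoforms of complex IV did not follow the other subunits. Cox4i2 stood at 3.14, 3.47 and 2.76 CPM in NZO/HiLtJ on the standard diet, at 1.08, 1.07 and 1.35 CPM in C57BL/6J, at 0.87, 0.347 and 0.958 CPM in CAST/EiJ and at 1.13, 0.706 and 0.825 CPM in WSB/EiJ. The NZO/HiLtJ libraries lay above all others, and the other 3 strains overlapped in part. Its log2 fold change in NZO/HiLtJ was 1.42 ± 0.33 over C57BL/6J (adjusted p = 0.0116), 2.11 ± 0.34 over CAST/EiJ (0.00011) and 1.81 ± 0.34 over WSB/EiJ (0.000666). The first of these was lost without C57BL/6J standard replicate 1 (0.0601) or 2 (0.0616). Ndufa4l2 had the same order at its top, with 3.75, 4.12 and 3.5 CPM in NZO/HiLtJ, 2.7, 1.92 and 3.01 CPM in C57BL/6J, 1.92, 1.82 and 1.28 CPM in WSB/EiJ and 1.05, 1.26 and 1.25 CPM in CAST/EiJ. It was higher in NZO/HiLtJ than in CAST/EiJ (1.67 ± 0.28, 0.000159) and WSB/EiJ (1.18 ± 0.28, 0.004), and lower in CAST/EiJ than in C57BL/6J (-1.10 ± 0.28, 0.00609). Neither gene was called for diet in any strain. Cox4i1, the counterpart of Cox4i2, stood at 172.4, 170.2 and 179.1 CPM in NZO/HiLtJ and 151.6, 152.6 and 139.4 CPM in C57BL/6J.

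Atp5h, Atp5g1 and Cox7a2l were lower in CAST/EiJ than in C57BL/6J, where 25 other members were higher. Atp5h, the d subunit of the ATP synthase stalk, was measured at 61.1, 49 and 57.1 CPM in CAST/EiJ on the standard diet, against 309.0, 307.5 and 308.1 CPM in NZO/HiLtJ, 297.7, 305.0 and 284.3 CPM in C57BL/6J and 534.0, 501.0 and 455.5 CPM in WSB/EiJ. It was far below every other library, on the high-fat diet as well (26.5, 62.5 and 46 CPM). The log2 fold change was -2.41 ± 0.21 against C57BL/6J (adjusted p = 1.01e-07) and -3.16 ± 0.22 against WSB/EiJ (3.13e-09). Atp5g1 stood at 20.9, 19.5 and 15.6 CPM in CAST/EiJ, 51.4, 58 and 49.2 CPM in C57BL/6J and 76.9, 78.1 and 77.6 CPM in WSB/EiJ (-1.5 ± 0.16 against C57BL/6J, 9.83e-07). Cox7a2l, a supercomplex factor, stood at 70.8, 66.7 and 67.1 CPM in CAST/EiJ and 90.4, 89.8 and 93.3 CPM in C57BL/6J (-0.42 ± 0.14, 0.0345), a call lost in 9 of the 24 single-library omissions.

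All 3 genes have near-identical copies elsewhere in the genome that are listed as genes of their own in the count table, so that reads can be assigned to either. Atp5h has 3 of them, the closest being Gm10250 (99.0% over 485 bases), Atp5g1 has 4, the closest being Gm10039 (99.8% over 411 bases), and Cox7a2l has 2, the closest being Gm6969 (100% over 201 bases). Summed, the copies of Atp5h were higher in CAST/EiJ (66.6, 53.4 and 59.8 CPM) than in C57BL/6J (21.7, 23.6 and 21.7 CPM), the opposite order to the gene. Those of Cox7a2l did the same, at 67.5, 63.5 and 65.2 CPM in CAST/EiJ and 24.1, 24.3 and 24.2 CPM in C57BL/6J. For Atp5g1 the summed copies stood at 31, 27.3 and 22.4 CPM against 23.3, 26.6 and 22.5 CPM, which overlap.

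With the counts of gene and copies summed, an alternative added after the data were seen, Atp5h still stood at 115.7 ± 12.7 CPM in CAST/EiJ, against 318 ± 11.4 in C57BL/6J and 531.3 ± 42.1 in WSB/EiJ (SD, n = 3). The log2 fold change against C57BL/6J was then -1.46 (adjusted p = 3.9e-05), and for Atp5g1 it was -0.76 (0.00139). For Cox7a2l the direction turned, to 0.21 (0.303), so the lower level of that gene in CAST/EiJ did not hold once the copies were added. In all, 30 members have at least 1 such copy in the table. In 14 of them the copies took over 5% of the joint counts, most in Ndufab1 (52.6%), the acyl carrier protein of complex I, Atp5g2 (52.1%), Atp5l (49.1%) and Cycs (43.1%), so single values of these genes are uncertain. Which of a gene and its copies gave a read was not tested. How well reads of each strain match the reference build was not tested either, and summing copies does not address it. This holds for the lower levels of Atp5h and Atp5g1 in CAST/EiJ and for single mitochondrial genes below.

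**Figure D5:**
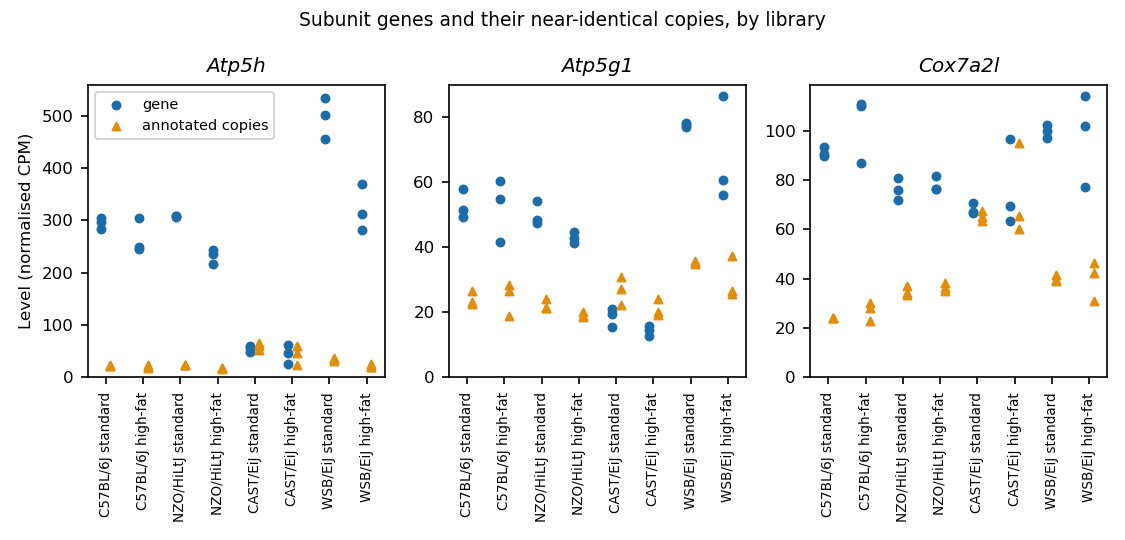
CPM of Atp5h, Atp5g1 and Cox7a2l (circles) and the summed CPM of their annotated copies (triangles) in each of the 24 libraries. In CAST/EiJ on the standard diet Atp5h and the sum of its copies are both between 49 and 66.6 CPM, whereas in the other strains the gene is far above its copies.

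The subunits encoded by mitochondrial DNA were measured in the same libraries. Averaged over strains, 13 of 13 fell on the high-fat diet (11.8% of all genes), with a median log2 fold change of -0.59, led by mt-Nd6 of complex I (-0.72, adjusted p = 0.00313) and mt-Atp8 of complex V (-0.58, 0.00495). In WSB/EiJ 9 of 13 fell (8.61% of all genes, median -0.92), and in NZO/HiLtJ, CAST/EiJ and C57BL/6J 0 passed (medians -0.54, -0.82 and -0.12). Without CAST/EiJ high-fat replicate 1 the counts were 13 averaged over strains, 13 in WSB/EiJ, 8 in NZO/HiLtJ and 0 in CAST/EiJ, with medians of -0.50, -0.92, -0.53 and -0.45. Over all omissions of a single library, 11 to 13 passed in the average. The WSB/EiJ count was 0 without WSB/EiJ standard replicate 1 or 2 or high-fat replicate 2, 5 without standard replicate 3 and 3 without high-fat replicate 1. On the standard diet 7 of 13 were higher in WSB/EiJ than in C57BL/6J (10.1% of all genes), or 13 without CAST/EiJ high-fat replicate 1. mt-Co3 of complex IV stood at 7218, 7776 and 6804 CPM in WSB/EiJ and at 3172, 3378 and 2379 CPM in C57BL/6J, without overlap (1.29, adjusted p = 0.00309). CAST/EiJ differed in 2 of 13, a share near that of all genes (12.6% higher and 15.3% lower), or 5 without CAST/EiJ high-fat replicate 1 (39.6% of all genes called): mt-Atp8 was higher (0.86, 0.0116), a call lost without C57BL/6J standard replicate 3 (0.0562), and mt-Nd3 was lower, at 93.9, 70.6 and 79.6 CPM against 272.4, 300.8 and 211.5 CPM (-1.68, 0.00136). Poly(A) selection recovers mitochondrial transcripts unevenly, so these levels are compared between libraries and not with nuclear genes.

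The assembly factors, which build the complexes and are not part of them, were counted in the average over strains, beside 11.8% of all genes called lower and 17.1% higher. Of these, 10 of 15 complex I assembly factors fell, 2 of 4 for complex II, 4 of 6 for complex III, 8 of 21 for complex IV and 3 of 4 for complex V. Among them were Ndufaf3 (-0.41, adjusted p = 0.0227), Sdhaf1 (-0.46, 0.0174), Bcs1l, which inserts the Rieske protein into complex III (-0.42, 0.01), Cox14 (-0.30, 0.00811) and Tmem242 (-0.39, 0.00958). The complex IV factor Coa4 rose (0.29, 0.0262), a call lost without C57BL/6J standard replicate 3, C57BL/6J high-fat replicate 1 or NZO/HiLtJ high-fat replicate 2. With CAST/EiJ high-fat replicate 1 left out (15% of all genes lower), 12, 3, 4, 12 and 4 fell in the order of the complexes, and over all omissions of 1 library the number called ranged from 1 to 15, 1 to 3, 1 to 6, 2 to 15 and 2 to 4. The lowest of these for complexes I and IV came without C57BL/6J high-fat replicate 1. With the adipocyte level as a covariate (6.96% of all genes lower), 4, 1, 2, 3 and 1 fell in the order of the complexes. Of 14 citric acid cycle enzymes, 2 fell, a share near that of all genes, led by Suclg2, a subunit of succinyl-CoA ligase (-0.56, 0.00283). Of 10 enzymes of ubiquinone synthesis, 5 fell, led by Coq8a (-0.97, 0.0078), which went from 238.1, 288.5 and 265.3 CPM to 99.8, 82.7 and 171.1 CPM in WSB/EiJ. The citric acid cycle count was 10 without CAST/EiJ high-fat replicate 1, 13 without CAST/EiJ high-fat replicate 2 and 1 to 3 without any other single library, and the ubiquinone count was 9, 10 and 2 to 7 in these fits. With the adipocyte covariate, 1 citric acid cycle enzyme and 2 ubiquinone enzymes fell.

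Of 15 regulators of mitochondrial biogenesis, 2 fell and 1 rose with the diet over strains, shares near or below those of all genes, led by the mitochondrial transcription factor Tfb2m (-0.35, adjusted p = 0.0099). The riser was the coactivator Pprc1 (0.27, 0.0484), which lost its call in 16 of the 24 single-library omissions. With CAST/EiJ high-fat replicate 1 left out, 2 fell and 0 rose. Ppargc1a, the coactivator PGC-1 alpha, stood at 23.1, 19.7 and 24.7 CPM in WSB/EiJ on the standard diet, at 11.2, 7.28 and 7.57 CPM in CAST/EiJ, at 3.88, 5.18 and 5.53 CPM in NZO/HiLtJ and at 3.15, 3.2 and 1.98 CPM in C57BL/6J. The 4 strains did not overlap, and WSB/EiJ exceeded C57BL/6J by 3.01 on the log2 scale (2.18e-05). On the high-fat diet it stood at 12.3, 14.4 and 13.8 CPM in WSB/EiJ, below that strain's standard-diet libraries. Esrra, the estrogen-related receptor alpha that partners with it, was higher than in C57BL/6J in both WSB/EiJ (1.14, 0.000228) and CAST/EiJ (1.19, 7.39e-05), and Gabpa, an ETS factor of respiratory genes, in CAST/EiJ (0.58, 7.87e-05). Counts of called genes in WSB/EiJ over C57BL/6J were 7 of 14 citric acid cycle enzymes, led by Suclg2 (1.27, 0.000417), 7 of 10 ubiquinone enzymes, led by Coq3 (1.67, 0.0009), 12 of 21 complex IV assembly factors, led by the copper chaperone Sco1 (1.03, 5.61e-05), and 4 of 15 regulators, with 0 lower in each list and 10.1% of all genes higher. These were 13, 8, 13 and 9 without CAST/EiJ high-fat replicate 1 (16.5% of all genes higher). Over the other single-library omissions the citric acid cycle count fell to 2 without C57BL/6J standard replicate 3 or WSB/EiJ standard replicate 1, and the complex IV count to 7 without the latter.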

How the data were processed

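The authors deposited a gene-level table of expected counts (estimated counts), which holds whole numbers. Per the submitters' processing notes, the tools were CASAVA 1.8.0, Bowtie 0.12.8 and RSEM 1.2.1, with the builds NCBIM37 and mm9; their roles and the strand setting are not given in the sources used here. Symbols came from a GENCODE name table and matched 32919 of 37991 gene identifiers (86.65%). Per the labels' protocols the 24 libraries are separate mice, and all were run on the same lane number. No pair of libraries within a group agreed within sampling noise.

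From the counts, edgeR 4.0.16 (R 4.3.3, limma 3.58.1) removed 17956 genes with its default filter by group, scaled by TMM and fitted 1 coefficient per strain and diet group to all 24 libraries with the quasi-likelihood test (16 residual degrees of freedom, common biological variation 40.06%). P-values were adjusted over all 20035 genes, and the script was tested on simulated data. The simulation had less variation between mice than these libraries and no aberrant library, so it does not show how the test performs here. Marker sums and single marker genes are CPM over unscaled totals, except Ppargc1a where it is described as a regulator, and log2 levels use a pseudocount of 1. Copies were other genes in the table matching a member's transcript at 90% identity or more over 200 bases or more. DESeq2 1.42.0, another scaling, no filter, covariates and omission of libraries were alternatives. Named with values were, per comparison and complex, up to 2 called members per direction with the smallest adjusted p (or the member with the smallest p), known isoforms and duplicated genes, the extreme diet fold changes, the succinate dehydrogenase and cytochrome genes, and up to 2 called genes per pathway list and direction, leaving out those of lowest rank; genes with copies and library-by-library examples beyond that were chosen after their values were seen. The members and all gene lists were chosen with earlier results of these data known. The deposited upper-quartile table was not used.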

Additional observations from a re-analysis of the deposited data

How the results depend on the processing

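DESeq2 called 50 members for diet in WSB/EiJ, 2 for NZO/HiLtJ against C57BL/6J and 25 for NZO/HiLtJ against CAST/EiJ. Without the 6 libraries, the counts were 62 for diet in NZO/HiLtJ, 0 in CAST/EiJ, 9 averaged over strains, 2 for the interaction, 83 over all strains on the standard diet, and, in the pairs, 15 (NZO/HiLtJ against C57BL/6J), 73 (CAST/EiJ against C57BL/6J), 78 (WSB/EiJ against C57BL/6J), 67 (NZO/HiLtJ against CAST/EiJ), 77 (NZO/HiLtJ against WSB/EiJ) and 24 (CAST/EiJ against WSB/EiJ). WSB/EiJ had no diet value there. In the same order, 20.8%, 2.56%, 12.3%, 6.92% and 75.1% of all genes were called in either direction. In the pairs 27%, 50.2%, 41.3%, 56.7%, 45.9% and 39.5% of all genes were called. The members' share was below that of all genes for diet in CAST/EiJ and averaged over strains, for the interaction and for the first and last pair. For the average, 5.9% of all genes were called lower. With the adipocyte covariate, added after the data were seen, the counts were 19 for diet in NZO/HiLtJ, 0 in CAST/EiJ, 71 in WSB/EiJ, 18 for the interaction, 83 over strains, and 10, 65, 76, 50, 75 and 29 in the pairs in the order above. Of all genes, 9.87%, 0.399%, 29.1%, 15.4% and 65.4% were called, and 17.5%, 39.2%, 34.4%, 46.2%, 41.2% and 35.3% in the pairs. The members' share was below that of all genes for diet in CAST/EiJ and in the first pair, and near it in the last. With the skeletal muscle covariate the counts were 1 for diet in NZO/HiLtJ, 0 in CAST/EiJ and 3 for CAST/EiJ against WSB/EiJ. Without the filter on low counts, CAST/EiJ had 0 for diet. The cause of these changes was not tested.

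Leaving out 1 library at a time gave 0 to 0 members for diet in C57BL/6J, 0 to 40 in NZO/HiLtJ, 0 to 55 in CAST/EiJ, 0 to 78 in WSB/EiJ and 35 to 79 averaged over strains. It gave 0 to 35 for the interaction, 33 to 81 over all strains, 0 to 8, 9 to 71 and 24 to 77 for NZO/HiLtJ, CAST/EiJ and WSB/EiJ against C57BL/6J, 7 to 60 and 17 to 74 for NZO/HiLtJ against CAST/EiJ and WSB/EiJ, and 3 to 20 for CAST/EiJ against WSB/EiJ. Among single-library omissions, the share of all genes called is given only for those of CAST/EiJ high-fat replicate 1. Counts from the other omissions and from DESeq2 stand without that background. Of 112 named fold changes, the direction turned in 2 of 764 values under other settings: Cox7a2l in CAST/EiJ against C57BL/6J with copies summed (0.21) and Cox6a2 in CAST/EiJ against WSB/EiJ with the muscle covariate (-0.35). With 1 library left out, 2486 of 2688 values kept direction and call, and Cox6a2 in CAST/EiJ against WSB/EiJ ranged from -0.65 (without CAST/EiJ standard replicate 2) to 7.52 (without WSB/EiJ standard replicate 2). No paired analysis was possible because the labels give no replicate numbers and tie no mice across groups. With 3 mice per group, differences that missed the threshold are not shown to be absent.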
